A study of Mus musculus with 672 samples.

Results

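The data are the epithelial cells of embryonic mouse pancreas at day E15.25, sorted one per well from tissue labelled tip and tissue labelled trunk, and read by full-length single-cell RNA sequencing of the Smart-seq2 kind. Of 601 cells kept in the whole series, 261 came from the E15.25 plates, and 165 of these counted as epithelial, 104 on the tip plates and 61 on the trunk plate. A cell was kept if its gene reads numbered 100000 or more, if 1500 or more genes were detected, and if mitochondrial transcripts took no more than 20% of the reads. Epithelial cells were chosen by 2 measured levels in CPM (a gene's read count scaled to a total of 1000000 gene reads per cell): Epcam, an adhesion protein of epithelia, at 30 CPM or more, and above Col3a1, a fibrillar collagen of mesenchyme.

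All mice were C57BL/6, with no transgene or treatment named in the labels. The fits used plates of 96 wells in 3 groups: 2 E15.25 tip plates (tip of bud 1 and tip of bud 2, called tip 1 and tip 2), 1 E15.25 trunk plate (trunk of bud 2, called trunk 2) and 4 E13.25 plates (pancreas 1 to 4, with no region named), which served to estimate the spread between plates. Tip 2 and trunk 2 are both labelled bud 2. Ages are those of the age labels, since the protocol text of the E15.25 samples speaks of E13.25 embryos. The title of E13.25 plate 4 alone carries a second mouse number, whose meaning is not given in the sources used here, and without that plate edgeR still called 0 genes in all epithelial cells. The labels do not say how tip and trunk were separated, which antibodies were used for the sort, or whether plates came from separate embryos, so a p-value here reflects plate-to-plate spread alone, possibly technical in part. With 1 trunk plate, the trunk has no spread of its own and was assumed to vary like the other groups.

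At mid-gestation the pancreatic epithelium is a branching tree. Its distal tips hold cells that become enzyme-secreting acinar cells under the transcription factors Ptf1a, Rbpjl, Nr5a2 and Bhlha15, while the central trunk, marked by Sox9 and Nkx6-1, gives rise to ducts and to endocrine cells. Endocrine commitment runs through a short burst of Neurog3, restrained in neighbouring cells by Notch signalling and its effector Hes1, and then through Neurod1, Pax4, Isl1 and the hormone genes. Cpa1, a carboxypeptidase made as a zymogen, marks tip and acinar cells, and Spp1, a secreted phosphoprotein, marks trunk and duct cells.

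Epithelial cells made up 55 of 87 kept cells on tip 1, 49 of 85 on tip 2 and 61 of 89 on trunk 2. Their median read number was 1093000, 1044000 and 795300, and their median number of genes with a read was 9188, 9314 and 9390. The lowest Epcam value inside the selection was 34.5 CPM and the highest below the minimum was 28.8 CPM, and 2 selected cells lay within 3 times the minimum. Another 37 cells passed the Epcam minimum but had more Col3a1, with medians of 82.7 CPM for Epcam and 4437 CPM for Col3a1. The ratio of Epcam to Col3a1 was at least 1.04 inside and at most 0.755 among those cells. These values chose the cells and are not results. The 8 epithelial markers were all present, with a median summed level over cells of 3523, 3100 and 3853 CPM on tip 1, tip 2 and trunk 2, while all 7 endothelial markers had a median of 0 on each plate. The 8 mesenchymal markers summed to a median of 91.4, 141 and 183 CPM.

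Some cells stood apart from the rest of their plate. On trunk 2 the 2 most deeply sequenced epithelial cells, wells 60 and 95, held 17.8% of the plate's epithelial reads, and both had high Spp1. The corresponding share was 16.2% on tip 1 and 9.90% on tip 2. There were 3 cells with at least 10000 CPM of the globin Hbb-bt, a red blood cell transcript: trunk 2 well 52 with 399800 CPM, and tip 2 wells 91 and 92 with 17670 and 367900 CPM. The trunk cell was also the one with the lowest Epcam of the selection. Results that rest on these cells are given with and without them.

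Neurod1 cells, of the endocrine lineage, were a smaller share of the epithelium on both tip plates than on the trunk plate. Cells were placed in ranges by fixed cuts: Neurod1 cells had at least 30 CPM of Neurod1, and the others were Cpa1-high (at least 1000 CPM of Cpa1, and more of it than of Spp1), Spp1-high (at least 1000 CPM of Spp1, and no less of it than of Cpa1) or neither. Neurod1 cells were 3 of 55 on tip 1 (5.455%, exact Clopper-Pearson 95% interval 1.14 to 15.1%), 5 of 49 on tip 2 (10.2%, 3.40 to 22.2%) and 13 of 61 on trunk 2 (21.3%, 11.9 to 33.7%). The tip mean lay 13.5 percentage points below the trunk (SD of the 2 tip plates 3.36 points), and within bud 2 the gap was 11.1 points. Both tip plates were below the trunk, but the interval of each tip plate overlapped that of the trunk. Intervals cover counting error only, and with 2 plates against 1 no test of a share was made.

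Cpa1-high cells were the most frequent range on each of the 3 plates. They were 39 of 55 on tip 1 (70.9%, 57.1 to 82.4%), 26 of 49 on tip 2 (53.1%, 38.3 to 67.5%) and 27 of 61 on trunk 2 (44.3%, 31.6 to 57.6%). The tip mean was 17.7 points above the trunk, with an SD of 12.6 points between the tip plates, and within bud 2 the gap was 8.80 points. The difference between the 2 tip plates was thus as large as the gap between tip mean and trunk. Spp1-high cells were 11 of 55 (20%, 10.4 to 32.97%), 15 of 49 (30.6%, 18.3 to 45.4%) and 19 of 61 (31.1%, 19.9 to 44.3%), so tip 2 and trunk 2 differed by 0.540 points. The other cells, 2, 3 and 2, fell in none of the ranges. In the E13.25 plates, Spp1-high cells were the most frequent range at 48.9 to 61.1%, Cpa1-high cells were 22.2 to 27.7% and Neurod1 cells 11.1 to 21.9%.

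**Figure D1:**
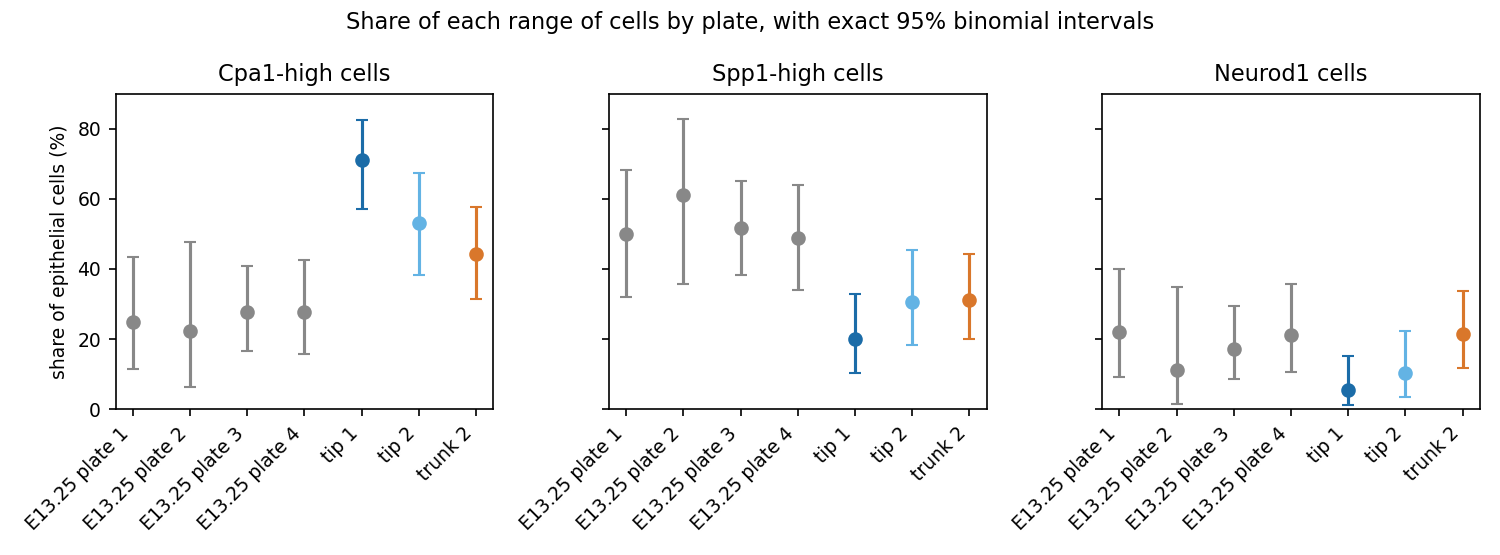
Share of epithelial cells (%, vertical axis) in each of 3 ranges, 1 point a plate with its exact 95% binomial interval, for the 4 E13.25 plates (grey), the 2 E15.25 tip plates (blue) and the trunk plate (orange). Neurod1 cells are 5.455% and 10.2% on the tip plates and 21.3% on the trunk plate, and Cpa1-high cells are above 44% on all 3 E15.25 plates.

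The trunk plate held many Cpa1-high cells, and the tip plates held Spp1-high cells. By number, 27 of the 61 trunk cells had the Cpa1-high profile and 26 of the 104 tip cells the Spp1-high one. By reads the mix depended on the deepest cells. Cpa1-high cells gave 69.99, 54.3 and 40.7% of the epithelial reads of tip 1, tip 2 and trunk 2, and Spp1-high cells gave 22.3, 29.2 and 45.2%. Without the 2 deepest cells of each plate these were 73.6, 54.9 and 49.5% for Cpa1-high cells and 17.2, 26.8 and 33.4% for Spp1-high cells. Neurod1 cells gave 7.27, 12.25 and 10.37% of the reads, and 8.675, 13.59 and 12.62% without the 2 deepest cells. By reads, unlike by number, their share was thus higher on tip 2 than on trunk 2. Few cells lay near a cut (1, 5 and 2 near that of Cpa1 or Spp1, and 1 on each plate near that of Neurod1). Levels in cells outside the epithelial selection are given beside these cuts. Their source was not tested. In the non-epithelial cells of the 3 plates, whose median depth was 695200, 571000 and 733500 reads, median Cpa1 was 264, 180 and 223 CPM and median Spp1 was 45.4, 195 and 159 CPM, all under the cut, and median Neurod1 was at most 2.69 CPM. At or over the cut were 4, 3 and 3 of these cells for Cpa1, 1, 6 and 2 for Spp1, and 1, 5 and 3 for Neurod1, of 32, 36 and 28. On tip 2 the 5 cells past the Neurod1 cut outside the selection equalled the 5 counted inside it. The shares of Neurod1 cells cover only cells inside the selection and depend on it.

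**Figure D2:**
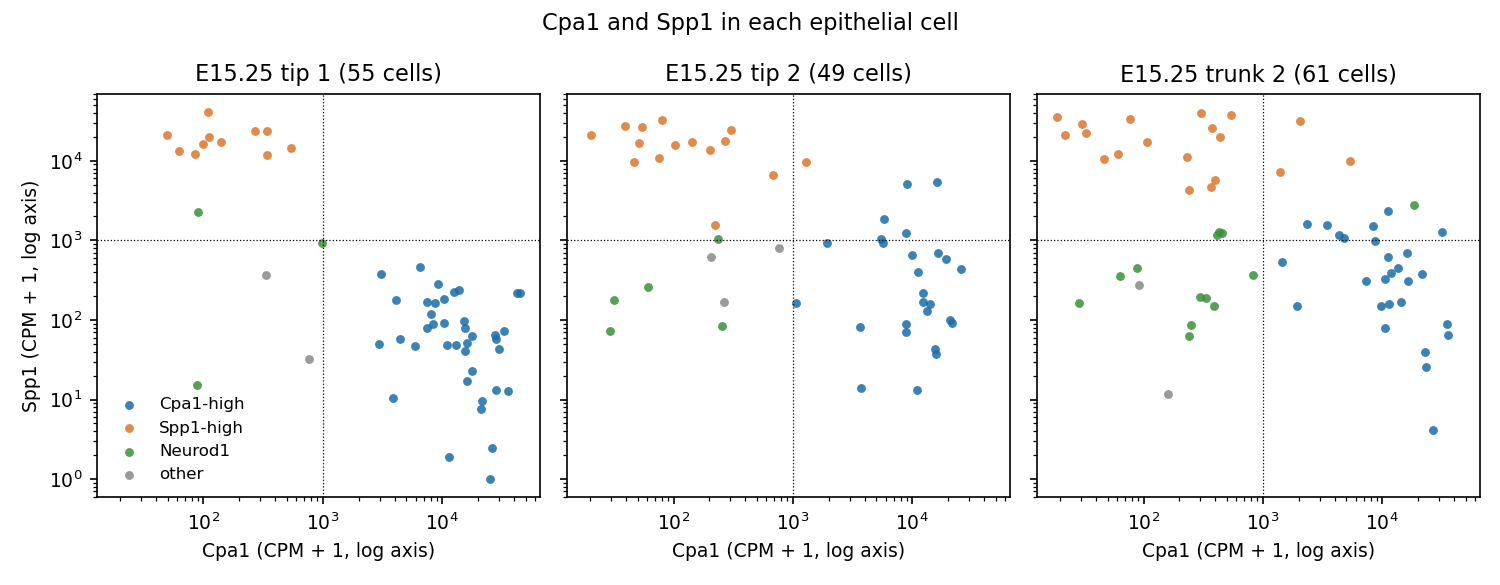
Spp1 against Cpa1 (CPM + 1, both axes logarithmic) in each epithelial cell of the 3 E15.25 plates, coloured by range, with dotted lines at the cut of 1000 CPM. The upper right field, where both genes pass the cut, is empty on tip 1 and holds 6 cells on tip 2 and 11 on trunk 2.

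Cells with both Cpa1 and Spp1 at 1000 CPM or more were found on the bud 2 plates. They were 0 of 55 on tip 1, which allows a share of up to 5.455% by the limit of 3 cells behind a 0 (exact 95% upper bound 6.49%), 6 of 49 on tip 2 (12.2%, 4.63 to 24.8%) and 11 of 61 on trunk 2 (18.03%, 9.36 to 29.98%). Of the 11 trunk cells 7 were Cpa1-high, 3 Spp1-high and 1 a Neurod1 cell. Their medians on trunk 2 were 4756 CPM for Cpa1, 1616 CPM for Spp1, 228 CPM for Ptf1a and 193 CPM for Sox9, and 10 of the 11 had at least 10 CPM of both Ptf1a and Sox9. On tip 2 the medians were 7362, 3517, 180 and 93.2 CPM, and 4 of the 6 had at least 10 CPM of both factors. Such levels were common in Cpa1-high cells in general. At least 10 CPM of Ptf1a was found in all 39, 26 and 27 of them on tip 1, tip 2 and trunk 2. At least 10 CPM of Sox9 was found in 29, 23 and 24. The cells with both Cpa1 and Spp1 at the cut were shallow by median. Their median read number was 279000 on trunk 2 against 853200 in the other cells, and 295400 against 1076000 on tip 2. Only 1 trunk cell and 2 tip cells exceeded 3000 CPM in the lower of the 2 genes. The trunk cell, well 88, was deep with 1614619 reads. The tip 2 cells, wells 5 and 2, had 2056698 and 289865 reads. The part of shallow depth and free RNA in the cells with both genes was not tested, and doublets were not removed.

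No single gene passed the main test between tip and trunk. In plate sums of all epithelial cells, edgeR's quasi-likelihood test called 0 of 23114 genes (0%) higher and 0 (0%) lower at a Benjamini-Hochberg adjusted p under 0.05, with a smallest adjusted p of 0.897. An unadjusted p under 0.05 was reached by 1025 genes. DESeq2, an alternative that estimates the spread differently, called 133 genes higher (0.792% of 16786) and 152 lower (0.906%). Within Cpa1-high cells edgeR called 0 of 18520 genes (459 with an unadjusted p under 0.05) and DESeq2 called 76 higher (0.535%) and 21 lower (0.148%). Within Spp1-high cells edgeR called 0 of 19447 (1275 with an unadjusted p under 0.05) and DESeq2 called 396 higher (2.81%) and 231 lower (1.64%). Of the 285 DESeq2 calls in all epithelial cells 171 rested on 1 cell, as did 64 of 97 in Cpa1-high and 506 of 627 in Spp1-high cells. That is, 1 cell held more than 50% of the reads of the trunk plate or, for genes higher on the tip, of either tip plate. Over all genes of at least 20 CPM the share was 5.66, 5.19 and 30.77% on the trunk plate in the 3 sets.

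Distances were measured between each pair of plates. The median absolute log2 ratio over 7662 genes of at least 20 CPM (after adding 5 CPM) was 0.33 between the 2 tip plates, 0.39 between tip 1 and trunk 2, and 0.35 between tip 2 and trunk 2. The share of these genes more than 2-fold apart was 7.53, 12.2 and 9.66%, larger from tip to trunk than between the tips. In Cpa1-high cells the 3 distances were 0.33, 0.33 and 0.35, with 7.73, 7.94 and 9.67% of genes more than 2-fold apart. In Spp1-high cells, with 11 to 19 cells a plate, the 3 distances were 0.60, 0.68 and 0.64. The differences described below are therefore plate values, not calls, and their direction across both tip plates is read against the 28.8% of all genes that were above the trunk plate on both tip plates and the 33% that were below it on both.

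Genes of digestive enzymes lay mostly above the trunk on both tip plates. Of 38 measured members 26 were above the trunk on both tip plates and 2 below, and the median fitted log2 difference was 0.72, against 0.07 for all genes. None passed the edgeR or DESeq2 threshold. Without the 2 deepest cells of each plate 20 were above and 8 below (median 0.45), and with cells scaled to an equal total 20 and 7 (median 0.59). Together the enzymes took 125500 CPM on tip 1, 90800 on tip 2 and 68210 on trunk 2. Ctrb1, a chymotrypsinogen, had 47290 and 31790 CPM on the tip plates and 24280 on the trunk plate (log2 difference 0.73, SE 0.64). Pnliprp1, a lipase-related protein, had 36370, 28010 and 19390 CPM on tip 1, tip 2 and trunk 2 (0.75, SE 0.47), and Clps, the lipase cofactor colipase, 10710, 10040 and 6591 CPM (0.67, SE 0.61). The trunk plate was the lowest of the 3 for each of these. Cpa1, which chose the ranges but not the epithelial cells, had 13650, 6594 and 7547 CPM (0.46, SE 0.63), so tip 2 was below the trunk. Cel, the bile salt-dependent lipase, had 2243, 1808 and 1255 CPM (0.71, SE 0.27). It was picked here after its values were seen, because its promoter is printed here.

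Within Cpa1-high cells the enzyme levels of the plates lay close together. Of 38 measured members, Cpa1 itself among them, 14 were above and 11 below the trunk on both tip plates, where all genes gave 31.7% each way, and the median log2 difference was 0.12, or -0.10 without the 2 deepest cells of each plate. Ctrb1 had 67290, 57510 and 58400 CPM in Cpa1-high cells of tip 1, tip 2 and trunk 2, Pnliprp1 51690, 50290 and 46900 CPM, and Clps 15210, 18150 and 15230 CPM. The trunk value lay between the tip values for Ctrb1 and Clps and was the lowest for Pnliprp1. Medians over single Cpa1-high cells were 55820, 49180 and 58870 CPM for Ctrb1, and 945, 1176 and 1392 CPM for the amylase gene Amy2b, highest on the trunk plate for both. Near-identical trypsin and amylase genes can hold reads of one another, so their single values are uncertain.

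The promoters of these genes are shown because the enzymes are known targets of the PTF1 complex, in which Ptf1a and a partner bind an E-box and Rbpjl binds a nearby TGGGAA box. In the 250 bases before the transcription start (RefSeq, GRCm38.p6), an E-box written CACCTG or CAGCTG and a TGGGAA box, each sought on both strands, both occurred in 9 of 31 matched enzyme genes (29.03%), in 0 of 17 matched trunk and duct genes and in 7.28% of the 27025 genes of the table. The 3 matching promoters with the highest level of their gene are printed 5′ to 3′ on the gene's strand, with E-box and TGGGAA matches on either strand in capitals and all else in lower case. They lie at chr8:111691011-111691260 (minus strand, Ctrb1), chr2:28563404-28563653 (minus strand, Cel) and chr6:41458680-41458929 (plus strand, Prss1, a trypsinogen).
Ctrb1: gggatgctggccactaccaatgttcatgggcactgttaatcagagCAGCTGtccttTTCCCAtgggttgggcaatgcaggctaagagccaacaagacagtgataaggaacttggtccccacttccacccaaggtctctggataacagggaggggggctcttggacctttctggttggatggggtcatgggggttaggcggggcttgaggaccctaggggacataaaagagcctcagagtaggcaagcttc
Cel: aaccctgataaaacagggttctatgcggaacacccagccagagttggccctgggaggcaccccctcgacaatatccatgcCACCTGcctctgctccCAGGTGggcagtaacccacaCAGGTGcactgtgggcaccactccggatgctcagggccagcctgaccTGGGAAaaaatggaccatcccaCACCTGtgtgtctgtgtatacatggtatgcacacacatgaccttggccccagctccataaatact
Prss1: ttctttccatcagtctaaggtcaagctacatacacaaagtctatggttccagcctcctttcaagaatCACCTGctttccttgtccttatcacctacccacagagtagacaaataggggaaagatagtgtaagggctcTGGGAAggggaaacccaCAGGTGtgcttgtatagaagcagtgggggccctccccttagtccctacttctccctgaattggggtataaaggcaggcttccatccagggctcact
A match describes these letters only and is not evidence of binding.

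The acinar factors named here were lowest on the trunk plate, as Ctrb1, Pnliprp1, Clps and Cel were. In all epithelial cells Ptf1a, the bHLH factor that specifies acinar fate, had 291, 157 and 134 CPM on tip 1, tip 2 and trunk 2 (log2 difference 0.77, SE 0.51). Rbpjl, its acinar partner, had 713, 893 and 388 CPM (1.05, SE 0.37), and Bhlha15 (Mist1), which governs secretory maturation, 448.5, 302 and 152 CPM (1.33, SE 0.40). Nr5a2, a nuclear receptor of acinar cells, had 78.6, 87.96 and 66.3 CPM. The trunk plate was lowest for all 4, and the edgeR adjusted p was 1 for each. When Cpa1-high and Spp1-high cells were given equal weight on every plate, the log2 difference was 0.03 for Ptf1a, 0.22 for Rbpjl and 0.50 for Bhlha15. These are ratios of mean CPM over single cells after adding 5 CPM, outside the fit. They also scale each cell to an equal total and leave out Neurod1 and unranged cells. They thus differ from the fitted values in more than the mix of cells.

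In Cpa1-high cells alone, Ptf1a had 412.5, 262 and 323 CPM and Rbpjl 1016, 1594 and 916 CPM. Bhlha15 had 634, 524 and 356 CPM, with the trunk lowest of the 3 (log2 difference 0.70, SE 0.32, edgeR adjusted p 1). All 39, 26 and 27 Cpa1-high cells of the 3 plates had at least 10 CPM of both Ptf1a and Rbpjl. Over the list of 14 acinar transcription factors, 8 were above and 2 below on both tip plates in all epithelial cells (median log2 difference 0.25; 5 above, 3 below and a median of 0.13 without the 2 deepest cells of each plate), but 3 were above and 7 below within Cpa1-high cells (median -0.27). Id3, an inhibitor of bHLH factors and a BMP response gene, also lay above the trunk on both tip plates in both sets of cells. It had 142, 96.9 and 43.8 CPM in all epithelial cells (1.47, SE 0.56) and 202, 162 and 101 CPM in Cpa1-high cells (0.85, SE 0.38), with an edgeR adjusted p of 1 in each.

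**Figure D3:**
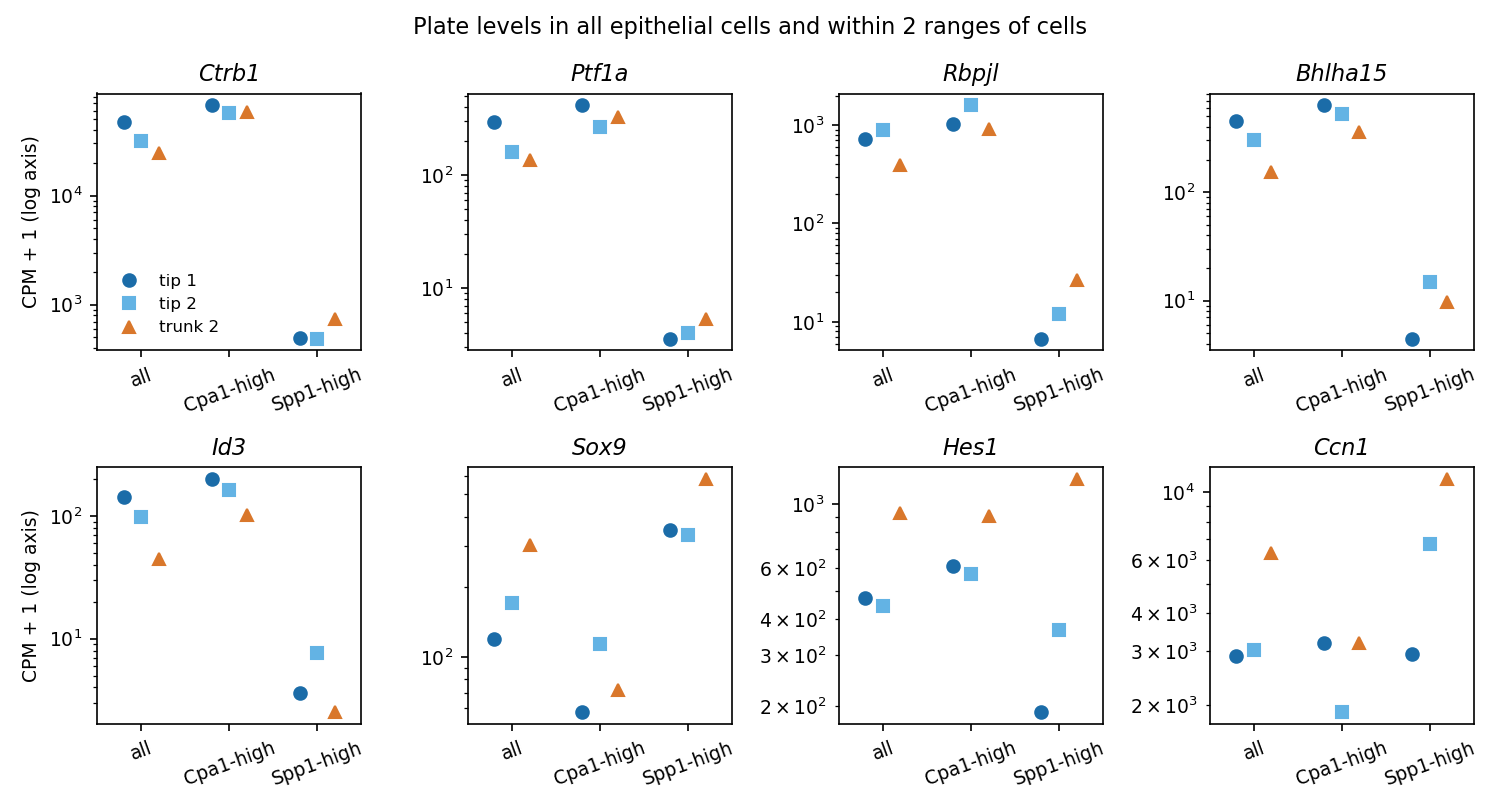
Plate levels (CPM + 1, logarithmic axis) of 8 genes in all epithelial cells, in Cpa1-high cells and in Spp1-high cells, with a circle for tip 1, a square for tip 2 and a triangle for trunk 2. The trunk plate is lowest for Ctrb1, Ptf1a, Rbpjl and Bhlha15 in all epithelial cells, but within Cpa1-high cells it is lowest only for Rbpjl, Bhlha15 and Id3 of the 8 genes.

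Trunk and duct genes ran the other way. Of 28 members 4 were above and 17 below the trunk on both tip plates, and the median log2 difference was -0.44. When cells were scaled to an equal total the median was -0.02, and without the 2 deepest cells of each plate it was -0.28. The list holds Spp1, which chose the ranges. Sox9, the factor of trunk and duct, had 118, 169 and 303 CPM on tip 1, tip 2 and trunk 2 (log2 difference -1.08, SE 0.36, edgeR adjusted p 1). The trunk cell of well 95 held 39.3% of the Sox9 reads of its plate, and without it the plate had 200 CPM. With the 2 main ranges weighted equally, by the same mean of CPM outside the fit, the Sox9 difference was -0.22. Nkx6-1, a trunk and later beta-cell factor, had 71.3, 65.3 and 77.1 CPM, with the tip and trunk plates close. Dcdc2a, a duct gene picked after its values were seen because it was the 1 list member that DESeq2 called, had 128, 132 and 263 CPM.

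Hes1, a main Notch effector, lay below the trunk on both tip plates in all epithelial cells, in Cpa1-high cells and in Spp1-high cells. It had 471 and 445 CPM on the tip plates and 928 CPM on the trunk plate (log2 difference -1.01, SE 0.28, edgeR adjusted p 1). In Cpa1-high cells it had 609, 574 and 907 CPM, and in Spp1-high cells 190, 367 and 1224 CPM (-2.29, SE 0.42, edgeR adjusted p 0.6995, DESeq2 adjusted p 0.00484). In the Spp1-high trunk cells 58.03% of its reads were in well 60. With the 2 ranges weighted equally, by the same mean of CPM outside the fit, the Hes1 difference was -0.95. Well 60 held 34.6% of the Hes1 reads of trunk 2, and without that cell the plate had 672.5 CPM, still above both tip plates. Medians over single cells pointed the same way, at 549, 371 and 781.5 CPM in Cpa1-high cells and 91.6, 208 and 521 CPM in Spp1-high cells. When cells were scaled to an equal total the difference was smaller (-0.36), as it was without the 2 deepest cells of each plate (-0.52). The other 21 genes of the Notch list showed no common direction, with 7 above and 6 below. The receptor Notch1 had 75.5, 77.6 and 58.7 CPM, the ligand-endocytosis enzyme Mib1 111, 131 and 164 CPM, and Hes6, which is induced in endocrine progenitors, 143, 94.4 and 59.4 CPM.

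Matrix and Hippo-pathway genes gave no common direction across settings. Ccn1 (Cyr61), a matricellular target of YAP, had 2888, 3036 and 6337 CPM on tip 1, tip 2 and trunk 2 (-1.09, SE 0.36). Well 60 held 42.3% of the trunk reads, and without it the trunk plate had 4053 CPM. Amotl2, a YAP target and inhibitor, had 142, 101 and 251 CPM. Among the 14 Hippo-YAP genes 2 were above and 7 below (median -0.51), but the median was -0.10 with cells scaled to an equal total and 0.04 without the 2 deepest cells of each plate. Lamb1, a laminin chain of the basement membrane, had 160, 181 and 342 CPM, while the integrin Itga6 had 341, 369 and 263.5 CPM. Of the 20 matrix and integrin genes 5 were above and 7 below (median 0.07), near the share of all genes.

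The remaining signalling lists gave small differences. Of 18 FGF and ERK response genes 5 were above and 6 below (median 0.12). Fgfr2, the receptor through which mesenchymal FGF10 sustains pancreatic progenitors, had 82.1, 150 and 137.5 CPM in all epithelial cells and 306, 403 and 262 CPM in Spp1-high cells alone. Dusp6, an ERK phosphatase and readout, had 68.6, 82.4 and 108 CPM, but 51.6% of the trunk reads were in well 56, and without that cell the trunk plate had 53.1 CPM, below both tip plates. Of 24 general epithelial genes, Epcam included, which chose the cells, 5 were above and 11 below (median -0.04). Among the latter were the keratins Krt8 (882, 721 and 1385 CPM) and Krt18 (1216, 1109 and 1691 CPM). Genes of the endoplasmic reticulum and secretory pathway were above on both tip plates in 20 of 31 cases and below in 3 (median 0.27), for example the chaperone Hspa5 with 2054, 1883 and 1430 CPM. Within Cpa1-high cells the count for this list was 14 above and 10 below.

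**Figure D4:**
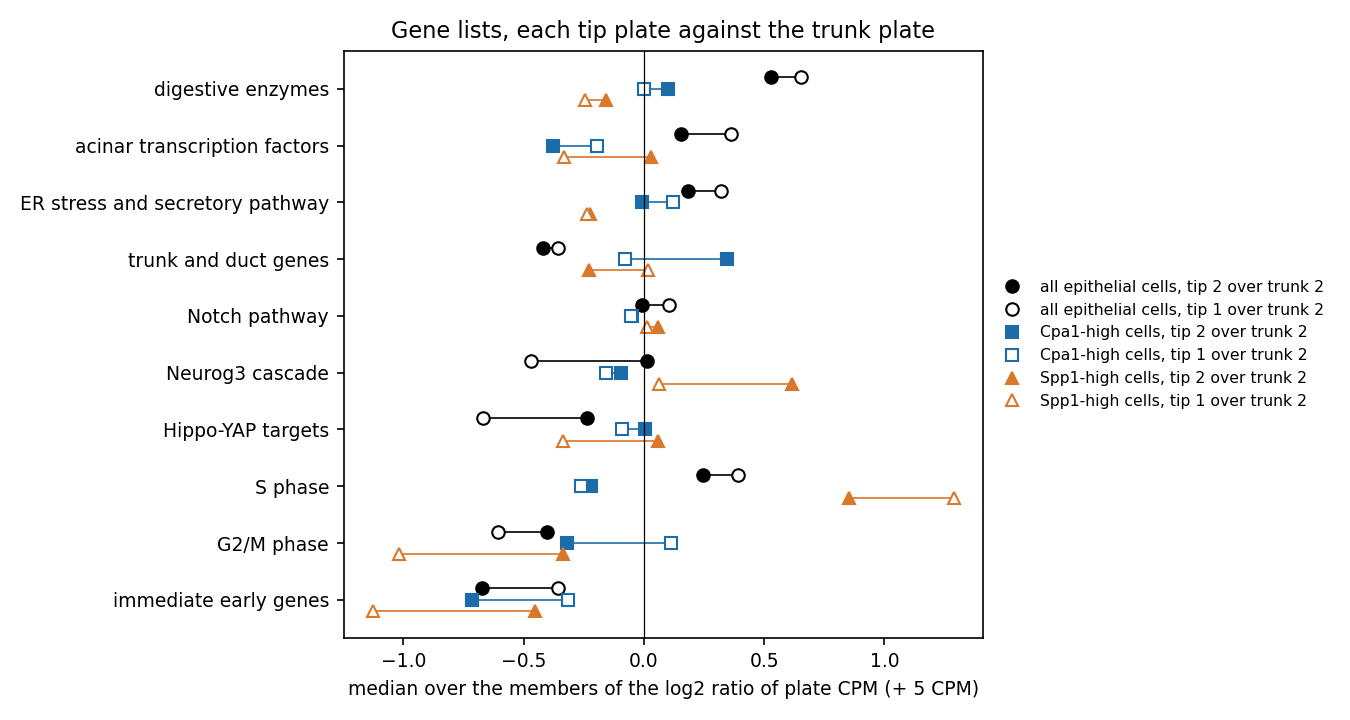
Median over the members of 10 gene lists of the log2 ratio of plate levels (after adding 5 CPM), for tip 2 over trunk 2 (filled) and tip 1 over trunk 2 (open), in all epithelial cells (circles), Cpa1-high cells (squares) and Spp1-high cells (triangles). Digestive enzymes lie at 0.53 and 0.65 in all epithelial cells and at 0.10 and 0.00 in Cpa1-high cells, and S-phase genes lie at 0.85 and 1.29 in Spp1-high cells.

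The 21 Neurod1 cells are described one by one. The 3 Neurod1 cells of tip 1 were 1 cell with 159900 CPM of Ins1 and 231700 CPM of Ins2, the insulin genes, along with 39590 CPM of Iapp, the amylin gene co-secreted with insulin, and 2 cells with Neurog3 at 1765 and 5865 CPM. The latter pair had no reads of insulin, glucagon, ghrelin or somatostatin genes, but 377 and 536 CPM of Cck, the cholecystokinin gene. On tip 2, 1 of 5 cells had 10380 CPM of the glucagon gene Gcg and 1 had 47510 CPM of the somatostatin gene Sst with 7696 CPM of the peptide YY gene Pyy. The other 3 had Chgb and Chga, granule proteins of endocrine cells, between 4172 and 15320 CPM. Of these, 1 had 1486 CPM of Fev, a factor of late endocrine precursors.

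Among the 13 trunk cells there were 4 with Neurog3 above 1000 CPM, the highest at 14420 CPM, together with 916 to 2119 CPM of Pax4, which favours beta and delta fates. There were 2 Gcg cells with 142900 and 17440 CPM, and 4 had Ins2 above 1000 CPM, at 122500, 39930, 1732 and 1124 CPM. The ghrelin gene Ghrl was at 5930 CPM in 1 cell and at 3662 CPM in the cell with 1732 CPM of Ins2. At least 1 hormone above 1000 CPM was found in 1 of 3, 2 of 5 and 7 of 13 Neurod1 cells of tip 1, tip 2 and trunk 2, and Neurog3 above 100 CPM in 2, 2 and 6. Further cells had at least 30 CPM of Neurog3 without passing the Neurod1 cut, 4, 3 and 3 in number. One of the 13 trunk cells, well 31, had 133397 reads and 67.5 CPM of Neurod1. It had 18560 CPM of Cpa1, 285 CPM of Ptf1a and 30300 CPM of Pnliprp1. Of endocrine genes it had 404.8 CPM of Ins2, 157.4 CPM of Iapp, 97.45 CPM of Chgb, and no more than 37.5 CPM of Chga or Isl1. Without it Neurod1 cells were 12 of 61 on the trunk plate (19.7%, 10.6 to 31.8%). What the cells of each plate expressed was not compared by a test.

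**Figure D5:**
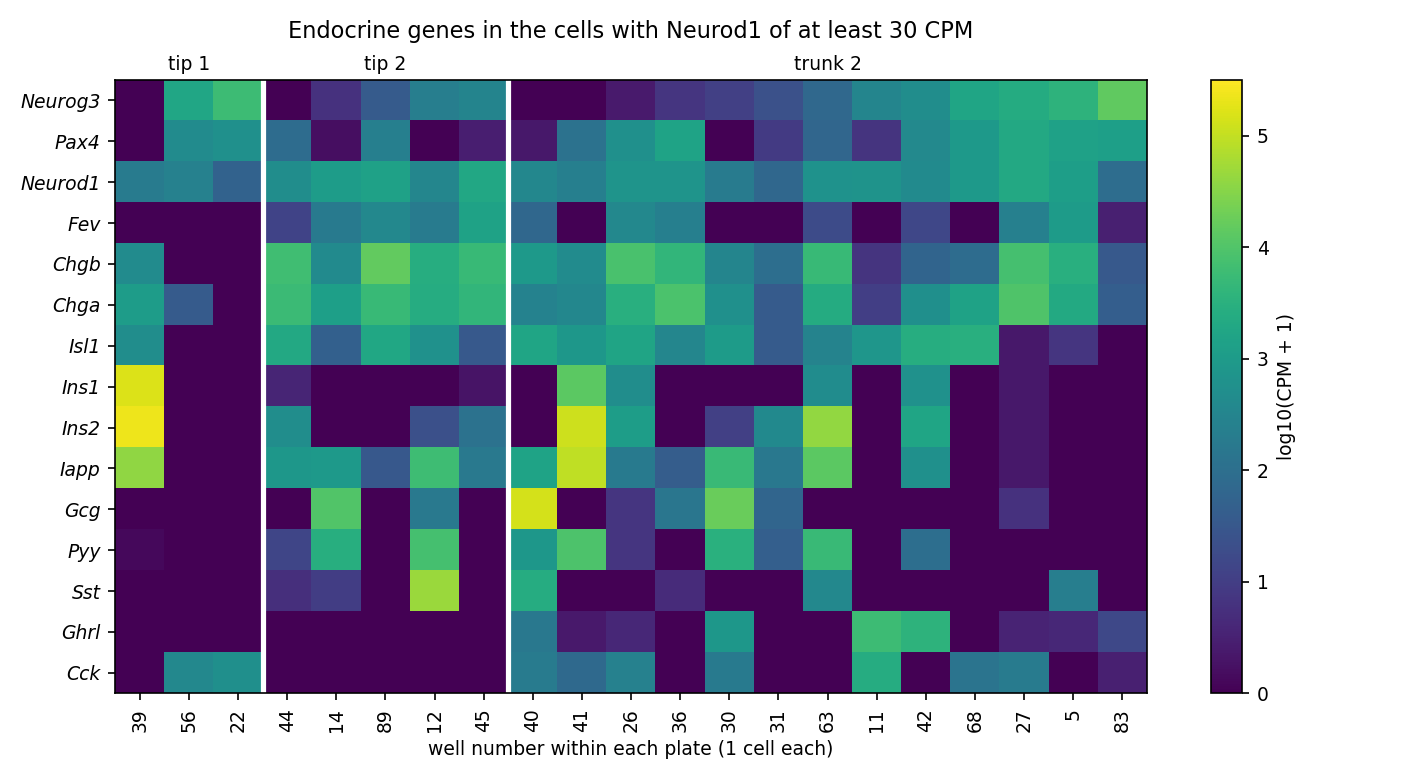
Levels of 15 endocrine genes as log10(CPM + 1), shown by colour, in the 21 cells with at least 30 CPM of Neurod1, 1 column a cell by well number, with white lines between tip 1 (3 cells), tip 2 (5) and trunk 2 (13). The 6 cells with Neurog3 above 1000 CPM hold no insulin, glucagon, ghrelin or somatostatin gene above 1000 CPM, and Ghrl above 1000 CPM is in 2 trunk cells.

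In plate sums the hormone levels rested on single cells. Ghrl had no read in the epithelial cells of either tip plate, which allows up to 0.0410 CPM on tip 1 and 0.0582 CPM on tip 2, and 65.8 CPM on trunk 2, where well 11 held 66.7% of the reads. Gcg had 0, 364 and 1701 CPM, and 93% of the trunk reads were in well 40. Ins2 had 10660, 24.6 and 1670 CPM. In Cpa1-high cells Ins2 had 108, 0.787 and 94.6 CPM on tip 1, tip 2 and trunk 2. The source of these Ins2 reads was not tested. Neurog3 summed to 161, 108 and 180 CPM. Pax4, picked after its values were seen because DESeq2 called it, had 15.4, 12.8 and 76.3 CPM and was found at 10 CPM or more in 2, 4 and 13 cells. Of 26 genes of the Neurog3 cascade 2 were above and 10 below (median -0.39, and -0.99 with cells scaled to an equal total).

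Comparing Neurod1 cells alone rested on tip 2 against trunk 2, since tip 1 had fewer than the 5 cells required. edgeR called 0 of 16320 genes (0% each way, 1166 with an unadjusted p under 0.05), and DESeq2 called 247 higher (2.08%) and 528 lower (4.44%). Without a filter on low counts edgeR called 1 gene, Cck, which was listed at 188 CPM in the Neurod1 cells of tip 1, 0 on tip 2 and 274 CPM on trunk 2, where 65.2% of the reads were in 1 cell. With the filter its edgeR adjusted p was 0.5902. The tip 1 cells did not enter this fit. Of 26 genes of the Neurog3 cascade 5 were above and 21 below the trunk (median log2 difference -1.27), where all genes gave 39.4% above and 53.8% below. The list holds Neurod1, which chose these cells. Neurog3 itself was above 1000 CPM in 4 of the 13 trunk cells and in 0 of the 5 on tip 2. Past a 2-fold gap were 3337 genes below the trunk (20.4%) and 2473 above, or, in the order above and below, 1815 (24.5%) and 1463 (19.8%) of those with at least 20 CPM.

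In Spp1-high cells the S-phase genes lay above the trunk and the G2/M genes below it. Of 24 S-phase genes 20 were above and 1 below the trunk on both tip plates (background 29.2% above and 29.7% below), with a median log2 difference of 1.06. The median was 0.49 with cells scaled to an equal total and 0.29 without the 2 deepest cells of each plate. Mcm5, a helicase subunit, had 502, 250.5 and 145.5 CPM, and Mcm6, another, 982, 291 and 289 CPM. By contrast 3 of 29 G2/M genes were above and 17 below (median -0.75), and this median was -1.11 and -1.42 under the same changes. Mki67, the proliferation antigen, had 315, 249 and 421 CPM. Within Cpa1-high cells 3 S-phase genes were above and 13 below (median -0.20), and 9 G2/M genes were above and 12 below (median -0.01). No gene of either list passed the edgeR threshold in any of these sets of cells. DESeq2 called 4 of the 24 S-phase genes higher in Spp1-high cells, against 2.81% of all genes, and none in Cpa1-high cells. It called no G2/M gene in these sets.

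Immediate early genes, which respond within minutes to growth factors and to tissue dissociation, lay mostly below the trunk on the tip plates in all epithelial cells (1 of 22 above, 12 below, median -0.53). Within Cpa1-high cells 2 were above and 16 below (median -0.55), and within Spp1-high cells 3 were above and 18 below (median -1.11). Fos had 2747, 2499 and 4520 CPM, Egr1 1195, 986 and 1553 CPM, and Jun 1569, 935 and 1515 CPM. Well 60 held 45.6% of the Fos reads of the trunk plate, and without that cell the plate had 2728 CPM, within the tip range. With cells scaled to an equal total the median of the list was -0.07 in all epithelial cells, -0.41 in Cpa1-high cells and -0.42 in Spp1-high cells. Without the 2 deepest cells of each plate it was -0.16, -0.54 and -0.27. Nr4a1, an orphan nuclear receptor of this list picked because DESeq2 called it, had 303, 268 and 880 CPM.

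Genes past a 2-fold gap on both tip plates were often carried by single cells. After adding 5 CPM, 152 genes (0.658%) were at least 2-fold above the trunk on both tip plates and 516 (2.23%) at least 2-fold below. Among genes of at least 20 CPM the counts were 66 (0.861%) and 247 (3.22%). Of the 247 genes below the trunk 116 had more than 50% of the trunk reads in 1 cell, and in 102 of these that cell was well 60 or well 95, with 51 genes each. Over all 7662 such genes the share with this property was 5.66%. Of the 66 genes above the trunk 4 had more than 50% of the reads of a tip plate in 1 cell.

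Within Cpa1-high cells 239 genes (1.29%) were past a 2-fold gap above and 312 (1.68%) below, or 99 (1.46%) and 86 (1.27%) of those with at least 20 CPM. Within Spp1-high cells the counts were 868 (4.46%) and 1026 (5.28%), or 601 (7.52%) and 572 (7.16%). Of these 572 genes 407 had more than 50% of the trunk reads in 1 cell, against 2460 of all 7994 genes (30.77%). Of the 601 genes above the trunk 384 had more than 50% of the reads of a tip plate in 1 cell. In Cpa1-high cells the counts were 19 of 86 below and 10 of 99 above, against 5.19% of all genes on the trunk side.

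Of the genes named by size, those above the trunk had low levels. Spsb4, a ubiquitin-ligase adaptor, had 29.4, 32.8 and 1.92 CPM (log2 difference 4.02, SE 0.62) and reached 10 CPM in 9, 12 and 1 cells. In both ranges it was above the trunk on both tip plates, with 8.13, 13.27 and 0.0343 CPM in Cpa1-high cells and 90.8, 78.7 and 0.277 CPM in Spp1-high cells. Hdac10, a deacetylase, had 32.9, 35.8 and 3.89 CPM (3.15, SE 0.61), Smyd3, a lysine methyltransferase, 23.3, 45.2 and 4.21 CPM (3.02, SE 0.77), and Gfra1, the GDNF co-receptor, 27.4, 37.9 and 4.36 CPM (2.90, SE 0.84). The edgeR adjusted p was 1 for each, while DESeq2 called all 4. The others of this direction were Snx8, Rabif, Zfp846, Clca3a2, G6pc2, Plekhb2, Sostdc1 and Asb6, with log2 differences of 2.45 to 3.97.

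Those below the trunk had most of their reads in 1 cell. Igfbp5, a secreted binding protein of insulin-like growth factors, had 7.46, 10.6 and 167 CPM (-4.21, SE 0.48, edgeR adjusted p 0.897), the smallest adjusted p of the comparison. It reached 10 CPM in 9, 7 and 25 cells. Well 60 held 84.6% of the trunk reads, and without that cell the plate had 28.5 CPM, above both tip plates. Fgd3, Flvcr1, Tchp and Stim1 had log2 differences of -4.12 to -3.10, and 64.5 to 78.2% of their trunk reads lay in well 60 or well 95. Red cell genes made up most of the rest. Hbb-bt had 139, 2316 and 10310 CPM and Alas2, the first enzyme of erythroid haem synthesis, 4.27, 10.1 and 151 CPM, with 98.5% of the trunk reads of each in well 52. Without the 3 globin-rich cells the log2 difference of Hbb-bt was 1.63 and that of Alas2 was 1.58, in the opposite direction, and median summed erythroid markers over cells were 341, 1822 and 2.42 CPM. The hormone genes Ghrl and Gcg, described above, met the same rule.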

How the data were processed

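The members and the gene lists were chosen with earlier results of these data known. Reads of 672 single cells were aligned with GSNAP to mm10 and counted per gene with HTSeq 0.5.3p3, per the submitters' processing notes. The values are raw counts per gene as deposited by the authors, without molecular identifiers. The annotation release, strand setting and treatment of multi-mapping reads are not given in the sources used here. Of 672 wells 601 were kept, and no 2 held identical counts. Rows that name no gene stayed out of all totals: unaligned reads were a median 42.47 to 48.05% of all counts in the epithelial cells of the E15.25 plates, reads outside genes 7.172 to 8.568%, ambiguous reads 4.628 to 5.278%, and spike-in reads 12.8 to 14.73% of gene and spike-in counts. Doublets were not removed.

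Counts of epithelial cells were summed per plate (51511926 to 73103289 reads on the E15.25 plates) and tested with edgeR 4.0.16 (quasi-likelihood test, TMM scaling, filterByExpr, R 4.3.3) over 7 plates in 3 groups, with p-values adjusted over all genes by Benjamini-Hochberg. Plates needed at least 10 cells of a range, or 5 Neurod1 cells. DESeq2 1.42.0, other filters, cell weights and cell sets were alternatives, and the code was tested on simulated data. Folds were taken after adding 5 CPM. Named genes were the 12 of largest log2 difference in each direction among those at least 2-fold from the trunk on both tip plates with a mean of 20 CPM, the 4 of highest level in each of 25 lists, and fixed tip, trunk and endocrine factors. In each range 6 further genes a direction met the same rule and are not all named. Some genes that met these rules are not reported here. Intervals are exact binomial (95%) and cover counting error only, as does the limit of 3 reads or cells behind a 0.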

Additional observations from a re-analysis of the deposited data

How the results depend on the processing

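The edgeR count was 0 under the other alternatives run in all epithelial, Cpa1-high and Spp1-high cells, and in Neurod1 cells it was 1 (Cck) without a filter on low counts. DESeq2 called 285, 97, 627 and 775 genes in epithelial, Cpa1-high, Spp1-high and Neurod1 cells. The cause of the gap between the tools was not tested. Counts past a 2-fold gap (152 above, 516 below) were 577 and 1136 with 1 CPM added, 58 and 279 with the mean of CPM over cells, and 539 to 854 and 892 to 1245 with 1 tip plate left out, where 1 plate must pass in place of 2. For bud 2 alone they were 854 and 892, or 2129 and 1890 with 1 CPM added. Shares of the 3 ranges stayed inside their intervals on each plate under the alternatives run. The gaps between tip mean and trunk moved by less than the SD of the 2 tip plates. Leaving out 1 tip plate cannot move a gap by more than this SD, so that check could not fail. Without tip 1 the Spp1-high gap was -0.54 points, against -5.845 with both tip plates. With the cut at 300 CPM, Spp1-high cells were 34.69% on tip 2 and 31.15% on trunk 2.

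Of 578 values for 34 named genes 540 kept direction and side of the threshold, 15 passed it with DESeq2 and 23, in 8 genes, reversed. Most of these genes were picked for a 2-fold gap on both tip plates in these data. Some settings left out an E13.25 plate only, which changed neither the tip nor the trunk counts. The count of kept directions was thus largely fixed in advance and is no measure of robustness. Leaving out 1 tip plate gave -0.2502 to 0.9333 for Cpa1 and -2.615 to 0.7758 for Neurod1. Without Neurod1 and unranged cells, values were 0.04674 for Neurod1, 2.036 for Neurog3, 1.716 for Alas2, 2.784 for Hba-a2, 3.225 for Hbb-bt and 3.076 for Hba-a1. With ranges weighted equally, outside the fit, they were -0.04396 for Cpa1, 0.1505 for Nkx6-1, 1.134 for Neurog3, 0.7678 for Alas2, 3.171 for Hba-a2, 4.073 for Hbb-bt and 3.51 for Hba-a1. With an Epcam minimum of 100 CPM, Alas2, Hba-a2, Hbb-bt and Hba-a1 gave 1.596, 2.604, 2.981 and 2.88, and without the globin-rich cells 1.583, 1.694, 1.631 and 2.056. Leaving out globin-rich, deepest, unranged or Cpa1-rich Neurod1 cells was chosen after seeing the data.

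No paired analysis was possible because tip and trunk share bud 2 alone and the E13.25 numbers name other pancreata. The fit of the E15.25 plates alone in Neurod1 cells, and fits without the trunk plate or, for Neurod1 cells, tip 2, could not be run. Shallow cells limit the shares near a cut, and the single trunk plate limits each test.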

Other observations

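In Spp1-high cells, 13 of 25 genes of the Neurog3 cascade were above the trunk on both tip plates and 6 below (median log2 difference 0.91), against 29.2% and 29.7% of all genes. The cascade list holds Neurod1, and these cells were chosen to lie under its cut. Neurog3 had 99.5, 313 and 29.5 CPM on tip 1, tip 2 and trunk 2 there, carried by 2, 2 and 5 cells of at least 10 CPM. The median was 0.23 with cells scaled to an equal total and 1.10 without the 2 deepest cells of each plate. edgeR called none of the 25 genes and DESeq2 called 2.

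In all epithelial cells, 15 of 24 S-phase genes were above the trunk on both tip plates and 0 below (median 0.40), and without the 2 deepest cells of each plate 3 were above and 8 below (median 0.03). Of 29 G2/M genes 2 were above and 21 below (median -0.50). Of 18 endocrine transcription factors 1 was above and 9 below (median -0.32), and of 28 hormone and granule genes 2 and 9 (median -0.21). With cells scaled to an equal total these were 0 and 13 of 17 (median -1.15) and 1 and 20 of 28 (median -1.29). Of 23 glycolysis and hypoxia genes 10 were above and 10 below, and of 19 WNT, BMP and hedgehog response genes 9 and 7.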
